A study of Mus musculus with 9 samples.

Results

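Klrg1+ cells that carried neither Havcr2 nor Mki67 reads were described among CD8+ T cells of 3 B16F10 tumours, by their genes, their T cell receptor clones and the presence of those clones in the lymph node draining the tumour. A cell was chosen when it had a receptor beta chain, at least 5 reads of Klrg1 and 0 reads of both Havcr2 and Mki67. The rule found 1005 cells among 30026 tumour cells with a beta chain. They were compared with 17718 cells of the same tumours that had 0 reads of all 3 genes, called Klrg1- cells here. The cells were chosen by their reads of Klrg1, Havcr2 and Mki67, so values of these 3 genes are given as a description and were not tested.

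B16F10 is a transplantable melanoma line of C57BL/6 mice. Female C57BL/6 mice of 8 weeks bore it under the skin, and tumours and draining nodes were taken on day 14. There was 1 mouse given a depleting antibody against CD4 (clone GK1.5), 1 given an antibody that blocks PD-L1 (clone 10F.9G2), each at 200 µg intraperitoneally on days 5 and 9, and 1 left untreated. In all 3 mice T cells in the blood vessels were marked by an injected anti-CD45.2 antibody and left out of the sort, which kept TCRbeta+ CD8+ CD4- cells lacking CD11b, B220, NK1.1 and Ter119. The anti-CD4 tumour filled 1 capture cartridge, in which tags 5 and 6 were both that mouse. The other cartridge held the untreated and the anti-PD-L1 tumour under tags 1 and 2. The labels used here do not tie a tag to a treatment, so they are called the tag 1 and the tag 2 tumour, and values given in threes are in the order anti-CD4, tag 1, tag 2. With 1 mouse per treatment, differences between tumours have no test, and treatment and animal cannot be told apart. The anti-CD4 tumour also differs from the other two in cartridge. T cells from Pmel-1 spleens, all with 1 transgenic receptor, had been added to the anti-CD4 cartridge after the sort and served there as a background.

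KLRG1 is an inhibitory receptor that binds cadherins. On CD8+ T cells it marks effector cells late in an immune response, which kill well and are short-lived as a population. Cells that will form memory tend to lack it and to carry the interleukin 7 receptor (Il7r) and the transcription factor TCF-1 (Tcf7). Havcr2 encodes TIM-3, a checkpoint receptor of exhausted effector cells in tumours, and Mki67 marks dividing cells.

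Cells were counted as 1 clone when their beta chains shared the V gene, the J gene and the nucleotides of CDR3, the loop that contacts antigen. The CDR3 sequences of the clones on which the results turn are printed from the authors' deposited receptor tables, 5′ to 3′. Capitals mark the bases between the end of the V segment and the start of the J segment, as the node tables place them. A clone that the node tables do not list is printed without capitals. The first 3 lines are the clones with more Klrg1+ cells than any other clone of their tumour, and the next 2 had the highest shares of Klrg1+ cells among clones of the anti-CD4 and tag 1 tumours. The last 3 are large clones in which no such cell was found.
anti-CD4 TRBV16/TRBJ2-5: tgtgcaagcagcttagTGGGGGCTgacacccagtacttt
tag 1 TRBV12-1/TRBJ2-5: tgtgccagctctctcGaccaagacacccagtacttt
tag 2 TRBV13-3/TRBJ1-3: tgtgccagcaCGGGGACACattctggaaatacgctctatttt
anti-CD4 TRBV2/TRBJ2-4: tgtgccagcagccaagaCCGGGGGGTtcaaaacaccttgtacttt
tag 1 TRBV16/TRBJ2-2: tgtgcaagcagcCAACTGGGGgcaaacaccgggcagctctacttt
anti-CD4 TRBV19/TRBJ1-1: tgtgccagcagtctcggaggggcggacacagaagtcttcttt
tag 1 TRBV13-1/TRBJ2-3: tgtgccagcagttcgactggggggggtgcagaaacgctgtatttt
tag 2 TRBV19/TRBJ1-1: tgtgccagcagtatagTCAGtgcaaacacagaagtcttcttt

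The chosen cells were 288 of 12304 in the anti-CD4 tumour (2.34%, exact 95% interval 2.08 to 2.62), 615 of 6412 in the tag 1 tumour (9.59%, 8.88 to 10.3) and 102 of 11310 in the tag 2 tumour (0.902%, 0.736 to 1.09). The tag 1 tumour thus had the highest share and the tag 2 tumour the lowest, and the intervals do not overlap. Intervals cover counting error within 1 animal only, since cells of 1 clone are not independent and reads made by PCR are not separate molecules. The 2 tags of the anti-CD4 mouse gave 2.23% and 2.45%. Of 788 Pmel-1 cells, 4 met the rule (0.508%, 0.138 to 1.29). The tag 2 tumour, whose interval overlaps this one, was captured in the other cartridge. After every cell was thinned to 4000 reads the shares were 2.24%, 7.49% and 0.601% for anti-CD4, tag 1 and tag 2, in the same order.

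**Figure D1:**
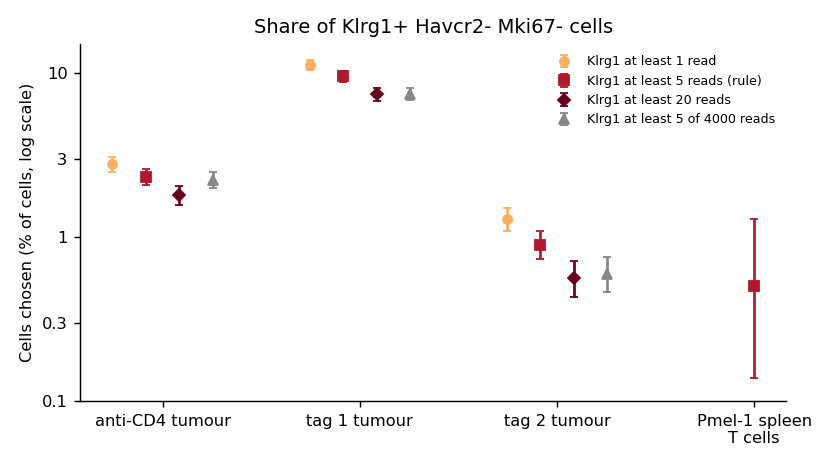
Share of Klrg1+ Havcr2- Mki67- cells among tumour cells with a beta chain (percent, log scale), under 3 limits on Klrg1 reads and after thinning each cell to 4000 reads, beside the Pmel-1 spleen cells of the anti-CD4 cartridge. Bars are exact 95% counting intervals. The tag 1 tumour lies highest and the tag 2 tumour lowest under each limit.

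Before Havcr2 and Mki67 were excluded, the anti-CD4 tumour lay nearer to the tag 1 tumour. Cells with at least 5 Klrg1 reads made up 11.6% of the anti-CD4 tumour, 15.0% of the tag 1 tumour and 1.94% of the tag 2 tumour. Of these, 69.4%, 28.5% and 38.8% carried a Havcr2 read for anti-CD4, tag 1 and tag 2, and 41.7%, 12.2% and 31.5% carried a Mki67 read. The chosen cells were therefore 20.2% of the Klrg1+ cells in the anti-CD4 tumour, 63.8% in the tag 1 tumour and 46.6% in the tag 2 tumour. Most Klrg1+ cells of the anti-CD4 tumour thus also had reads of TIM-3 or of the dividing state, while most of those in the tag 1 tumour had neither. Havcr2 was common in the anti-CD4 tumour outside these cells too, with a read in 51.3% of its cells that had no Klrg1 read, against 12.3% and 14.6% in the tag 1 and tag 2 tumours.

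Klrg1 itself had a median of 68.5 reads per chosen cell in the anti-CD4 tumour, 85 in the tag 1 tumour and 45.5 in the tag 2 tumour. Cells just inside it, with 5 to 9 reads, numbered 33, 69 and 22, and cells just outside it, with 1 to 4 reads, numbered 56, 109 and 44. The limit thus cut through more of the set in the tag 2 tumour, where 22 of 102 chosen cells lay just inside it. Gzmk was read in 63.6%, 68.1% and 45.5% of the cells just inside and in 44.6%, 70.6% and 22.7% of those just outside, so in the tag 1 tumour both sides of the limit looked alike in this gene. In cells with at least 100 Klrg1 reads Gzma was read in 24.6%, 39.4% and 66.7%, against 15.2%, 29.0% and 27.3% in cells with 5 to 9 reads. Cells with 10 to 19 reads gave 15.6%, 27.5% and 43.8%. Those with 20 to 99 gave 16.5%, 32.8% and 22.6%, so only the anti-CD4 tumour rose at each step. Gzmk was read in 70.2%, 73.4% and 48.5% of cells with at least 100 reads. Those cells were also read deeper, at medians of 22523, 22104 and 37074 total reads against 17444, 17563 and 19186 in cells with 5 to 9 Klrg1 reads.

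The chosen cells were read deeper than the Klrg1- cells, which bears on any share of cells with a read. Their median total was 20331.5 reads against 16292.5 in the anti-CD4 tumour, 20393 against 15839.5 in the tag 1 tumour and 30583 against 11825 in the tag 2 tumour. Shares are therefore also given after thinning to 4000 reads, which left out no cell, and log2 differences also against Klrg1- cells drawn to match the chosen cells in total reads.

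The label of short-lived effector cells was first checked against its other markers, Gzma, Gzmk, Itgax and Cx3cr1, and against the defining genes of CD8+ T cells. Cd8b1, which encodes a chain of the CD8 coreceptor, was read in 97.2%, 96.7% and 98.0% of the chosen cells (anti-CD4, tag 1 and tag 2). Cd8a was read in 95.1%, 81.5% and 91.2%, and Cd4 in no cell. None of the 4 other effector markers was read in 52 of 288 chosen cells of the anti-CD4 tumour (18.1%), 60 of 615 of the tag 1 tumour (9.76%) and 30 of 102 of the tag 2 tumour (29.4%). In Klrg1- cells these shares were 48.7%, 40.7% and 80.6%. The 4 markers were seldom found in 1 cell together, in 1, 7 and 1 of the chosen cells. Gzma, Gzmk and Itgax were more frequent in the chosen cells of each tumour, whereas Cx3cr1 was scarce.

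Gzma (chr13:113093824-113100981 in GRCm38) encodes granzyme A, a protease of cytotoxic granules. It was read in 19.4% of the chosen cells against 11.1% of Klrg1- cells in the anti-CD4 tumour, 34.8% against 14.7% in the tag 1 tumour and 41.2% against 7.97% in the tag 2 tumour. Thinning left 17.7% against 10.0%, 31.4% against 13.2% and 41.2% against 6.90%. In Pmel-1 spleen cells, with a median of 11116 reads, the share was 6.85%. Summed over cells, Gzma made up 4128 CPM (reads of the gene scaled to a fixed total of all genes) in the chosen cells against 2011 in the anti-CD4 tumour, 7574 against 2298 in the tag 1 tumour and 29028 against 976 in the tag 2 tumour. The chosen cells were higher in each tumour, least so in the anti-CD4 tumour and most in the tag 2 tumour, whose sum rests on 102 cells.

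Gzmk (chr13:113171630-113180965), its neighbour on chromosome 13, encodes granzyme K, a related protease of early effector and memory cells. It was read in 72.2% against 41.2% in the anti-CD4 tumour, 71.7% against 42.7% in the tag 1 tumour and 48.0% against 9.05% in the tag 2 tumour. The Pmel-1 share was 10.8%. Itgax (chr7:128129526-128150657), which encodes the integrin CD11c and is induced on activated CD8+ cells, was read in 26.7% against 12.7%, 58.2% against 29.9% and 32.4% against 4.58%, with 10.3% in Pmel-1 cells. Cx3cr1, the fractalkine receptor of terminal effector cells, was read in 4.51% against 2.30%, 2.93% against 2.62% and 3.92% against 1.20%. Its summed level was 19.1 against 19.9 CPM, 24.5 against 22.6 and 9.65 against 11.2, so at full depth the summed levels were close in each tumour. Gzmb, which encodes granzyme B, was read in 86.8% against 66.6%, 71.5% against 39.2% and 53.9% against 15.2% after thinning. It was then also read in 36.4% of Pmel-1 cells, so in that cartridge a read of Gzmb alone does not mark an effector cell.

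**Figure D2:**
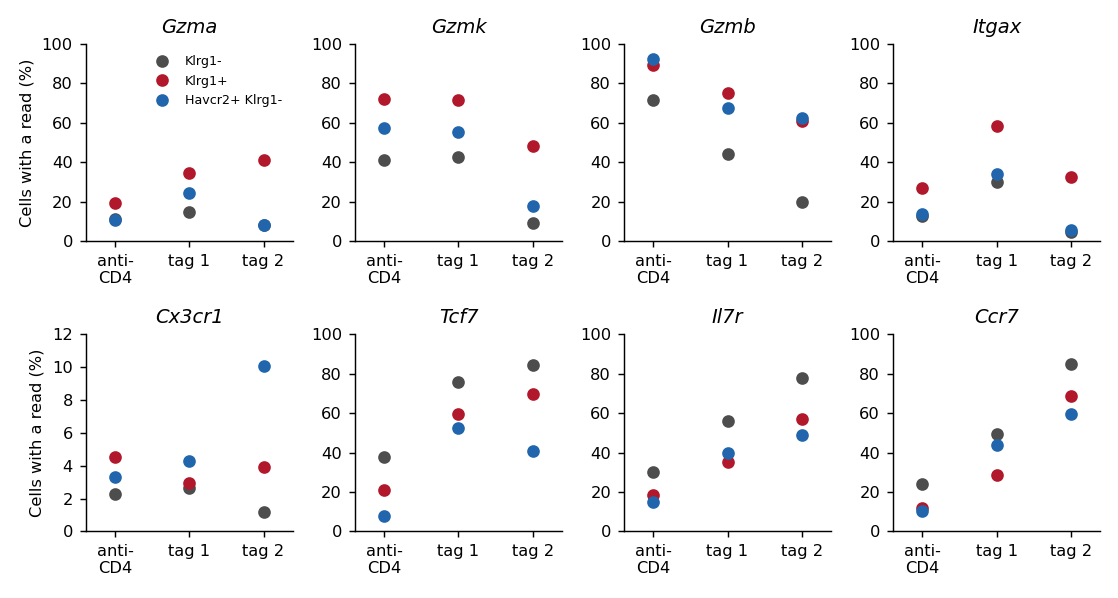
Percent of cells with at least 1 read of each gene in Klrg1- cells, Klrg1+ Havcr2- Mki67- cells and Havcr2+ Klrg1- Mki67- cells of the 3 tumours, at full depth. Cx3cr1 has its own axis to 12%. Gzma, Gzmk and Itgax lie higher in Klrg1+ than in Klrg1- cells of each tumour, and Tcf7, Il7r and Ccr7 lie lower.

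Differences were then fitted across genes, with the reads of each class summed per mouse and the mouse as a block, so that the 3 tumours were the replicates. The mice had different treatments, which are part of the spread between them. In edgeR's quasi-likelihood test, with Benjamini-Hochberg adjustment, 0 of 813 genes passed (0%), while 106 had an unadjusted p under 0.05. DESeq2 with the same block called 75 genes (9.23% of those tested), 11 higher and 64 lower in the chosen cells. Regardless of a call, 8.73% of genes were higher and 27.6% lower in the chosen cells of 3 of 3 mice. The median over all genes tested was -0.23 on the log2 scale, and it was -0.03 when the Klrg1- cells were matched in total reads. All log2 differences given here are chosen minus compared cells.

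Among the short-lived effector genes, 8 of 12 listed were tested and 6 were higher in 3 of 3 mice (Gzma, Gzmk, Itgax, Prdm1, Itgal and Itgam), none lower, with a median of 0.98. DESeq2 called 2 of them higher. Gzma was higher by 2.55 (SE 0.884, edgeR adjusted p = 0.315, DESeq2 adjusted p = 0.0561), with 0.886, 2.02 and 5.05 for anti-CD4, tag 1 and tag 2. Without the tag 2 tumour its difference was 1.40. Itgax was higher by 1.35 (SE 0.335, edgeR adjusted p = 0.171, DESeq2 adjusted p = 0.0187). Gzmk was higher by 1.36 (SE 0.369), and Prdm1, which encodes the effector regulator Blimp-1, by 1.04 (SE 0.358). Without the tag 2 tumour these were 0.81 and 0.69. Cx3cr1 differed by 0.05 (SE 0.485), and by 1.03 against Klrg1- cells matched in total reads, so its value turned on how the compared cells were drawn. Zeb2, a regulator of terminal effector cells, was read in 0 of the chosen cells of each tumour and in 1 or 2 Klrg1- cells of each tumour, so the panel gave no measure of it.

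Of the cytotoxic list 4 of 13 genes tested were higher and 1 lower in 3 of 3 mice, with a median of 0.29, which was -0.038 against Klrg1- cells matched in total reads. Gzmb was the gene that DESeq2 called, at 32273 against 17411 CPM in the anti-CD4 tumour, 12042 against 5016 in the tag 1 tumour and 8571 against 1745 in the tag 2 tumour. This is a difference of 1.58 (SE 0.351, edgeR adjusted p = 0.128, DESeq2 adjusted p = 0.0129). Nkg7 (0.29) and Ctsw (-0.19), which encode proteins of cytotoxic granules, differed little. Ccl5, a chemokine gene of effector cells, stood at 141605 against 108099 CPM, 211101 against 140969 and 155151 against 44415. Ccr2, a receptor for inflammatory chemokines, stood at 3973 against 2642 CPM, 1992 against 1010 and 2003 against 285. Both were higher in each tumour, by 1.02 (SE 0.338) and 1.54 (SE 0.527), and neither was called by edgeR or DESeq2. Without the tag 2 tumour they were at 0.51 and 0.81.

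The genes of memory and stem-like cells lay lower. Of 13 tested, 6 were lower in 3 of 3 mice (among them Tcf7, Il7r, Ccr7, Bcl2 and Il6ra) and 1, Eomes, was higher, with a median of -0.996, or -0.49 against Klrg1- cells matched in total reads. DESeq2 called 5 lower. Il7r had 992 against 2154 CPM in the anti-CD4 tumour, 2448 against 6924 in the tag 1 tumour and 3617 against 11548 in the tag 2 tumour. Its difference was -1.33 (SE 0.172, edgeR adjusted p = 0.0934, DESeq2 adjusted p = 3.52e-05), with -1.27, -1.20 and -1.52 in the 3 mice. Ccr7, a chemokine receptor that guides T cells into lymph nodes, differed by -1.69 (SE 0.235, edgeR adjusted p = 0.0934), and Tcf7 by -1.25 (SE 0.242, edgeR adjusted p = 0.0942). Both were called by DESeq2. Matching the Klrg1- cells in total reads left Ccr7 at -1.64 and moved Tcf7 to -0.77 and Il7r to -0.49.

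The lower level did not mean loss of these genes. Tcf7 was read in 21.2% of the chosen cells of the anti-CD4 tumour, in 59.3% in the tag 1 tumour and in 69.6% in the tag 2 tumour, against 37.7%, 75.7% and 84.6% of Klrg1- cells. Il7r was read in 18.4%, 35.0% and 56.9% against 30.3%, 55.9% and 77.8%. In the chosen cells both genes were least frequent in the anti-CD4 tumour and most frequent in the tag 2 tumour, which was also their order in Klrg1- cells. Eomes, a T-box factor of both memory and effector cells, was higher by 0.81 (SE 0.274), or 0.44 without the tag 2 tumour, with 1533 against 955 CPM, 2556 against 2301 and 3330 against 1354.

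Checkpoint genes gave no common direction. Of 15 tested, 4 were higher (Cd38, Entpd1, Tigit and Tox) and 2 lower (Btla and Lag3) in 3 of 3 mice, with a median of -0.17. DESeq2 called 1 of them, Entpd1, which encodes the ectoenzyme CD39 and was higher by 1.08 (DESeq2 adjusted p = 0.039). Pdcd1, which encodes PD-1, stood at 7973 against 9234 CPM in the anti-CD4 tumour, 1507 against 2168 in the tag 1 tumour and 3410 against 3600 in the tag 2 tumour, a difference of -0.17. Early activation genes lay lower in 5 of 10 tested, among them Fosb (-0.84, DESeq2 adjusted p = 0.0404) and Junb (-0.57), which stood at -0.42 and -0.34 against Klrg1- cells matched in total reads.

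Of the list of Ly49 and NK receptors 7 genes were tested, with a median of -1.69. The 5 lower in 3 of 3 mice were of the Ly49 family, receptors for class I molecules shared with NK cells. Klra7, which encodes Ly49G, stood at 106 against 338 CPM, 91.1 against 307 and 169 against 647 for anti-CD4, tag 1 and tag 2. It was read in 1.39%, 2.60% and 5.88% of the chosen cells, so few cells carried it. The list's median was -0.47 when the Klrg1- cells were matched in total reads, and Klra7 then also stood at -0.47. Proliferation genes were even, at a median of 0.12 over 7 genes, with 1 higher in 3 of 3 mice and none lower; Mki67 had chosen the cells. The T cell receptor and coreceptor list had a median of -0.02 over 15 genes. Homing receptors (median -0.12, 2 of 13 higher and 2 lower), cytokines and chemokines (-0.08, 3 of 18 higher and 4 lower), interferon response genes (-0.23, 1 of 14 higher and 3 lower) and tissue residency genes (-0.27, 0 of 5 higher and 1 lower) lay near the median over all genes.

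The rule for genes of largest difference asked for at least 50 CPM on average and named 10 genes, many of them known from myeloid cells. All 10 were lower in the chosen cells, but a gene with few reads there could pass the limit only through the Klrg1- cells, so their common direction is not a result. They were Cd63, H2-Aa, Csf2, Lyz2, H2-Eb1, C1qa, Spp1, Fcer1g, Kit and Apoe. Several had almost no reads in the chosen cells of a tumour. Lyz2, which encodes lysozyme of myeloid cells, had 2727 reads in the anti-CD4 tumour, 3 in the tag 1 tumour and 0 in the tag 2 tumour. Csf2, which encodes the growth factor GM-CSF, stood at 3.49 against 224 CPM, 3.25 against 61.2 and 5.29 against 93.6 (log2 -4.66, SE 0.698, edgeR adjusted p = 0.0934). Spp1, which encodes osteopontin, stood at 38.7 against 377 CPM, 5.50 against 59.8 and 34.3 against 290. Cells with macrophage marker reads made up 4.17%, 0.163% and 0.980% of the chosen cells against 6.25%, 0.866% and 1.08% of Klrg1- cells. Without those cells Csf2 was at -4.54 and Spp1 at -2.70, beside -3.17 for Spp1 with them.

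Lists of markers of other cells were read in the same sums. The macrophage and monocyte list summed to 2022 to 4538 CPM in the chosen cells and 409 to 4913 CPM in Klrg1- cells, with 6 of 8 genes tested lower in 3 of 3 mice and 1 higher. Its median was -3.42, and -0.62 against Klrg1- cells matched in total reads. The higher one was Ccr2, which T cells also express and which makes up most of the sum in the chosen cells. Chil3 was at 0 reads in the chosen cells of each tumour, and C1qa in those of the tag 1 and tag 2 tumours. The B cell list summed to 2033 to 2452 CPM against 1440 to 3235 CPM, with 2 of 6 higher and 3 lower, and Cd79a was at 0 in the chosen cells of the anti-CD4 and tag 1 tumours. The dendritic cell list, which holds Itgax, summed to 603 to 1670 CPM against 390 to 3041 CPM, with Itgax higher and 3 of 5 lower. The NK and gamma delta T cell list summed to 1702 to 3331 CPM against 1435 to 2504 CPM, with 1 of 3 higher and 2 lower. The neutrophil and mast cell list summed to 0 to 126 CPM against 26.2 to 371 CPM, with 3 of 3 lower. All 4 of its panel genes were at 0 reads in the chosen cells of the anti-CD4 tumour. Against Klrg1- cells matched in total reads, 1 of its genes was tested. In each of these lists a gene with few reads in the chosen cells could pass the filter only through the Klrg1- cells. The lower level of such a gene is not a result. The part of free RNA or attached cells in the results was not tested.

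Whether the differences held inside clones was asked with equal numbers of both classes drawn from each clone that had at least 3 of each. These were 19 clones and 194 cells of each class in the anti-CD4 tumour, 23 clones and 471 cells in the tag 1 tumour and 5 clones and 26 cells in the tag 2 tumour. In the tag 1 tumour TRBV12-1/TRBJ2-5 gave 263 of the 471 and TRBV4/TRBJ2-3 gave 95, so its values are mainly those of these clones. Median total reads were 20369 against 17606, 20219 against 17081 and 31899.5 against 29822.5. Here edgeR called 0 of 359 genes (0%), with 14 at an unadjusted p under 0.05, and DESeq2 called 7 (1.95%), 4 higher and 3 lower. In 3 of 3 mice 11.4% of genes were higher and 12.5% lower.

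Gzma was higher among cells of the same clones, with 4274 against 1678 TMM-scaled CPM in the anti-CD4 tumour, 8041 against 3685 in the tag 1 tumour and 9271 against 1319 in the tag 2 tumour. The difference was 1.75 (SE 0.416, edgeR adjusted p = 0.979, DESeq2 adjusted p = 0.00215), with 1.35, 1.13 and 2.81 in the 3 mice. Gzmb was higher by 0.72 (SE 0.18, DESeq2 adjusted p = 0.0181) and Tcf7 lower by 0.61, at -0.51, -0.82 and -0.50 (SE 0.176, DESeq2 adjusted p = 0.0144). Itgax stood at 1.12, but the tag 1 tumour alone gave 0.0828. Of 7 short-lived effector genes tested within clones, 3 were higher in 3 of 3 mice (Gzma, Gzmk and Itgax) and none lower, with a median of 0.37. Prdm1 stood at -0.68, with 0.68, 0.088 and -3.29 for anti-CD4, tag 1 and tag 2, and Cx3cr1 at -0.52. Of the 13 memory and stem-like genes tested, Tcf7 was the 1 lower in 3 of 3 mice and Lef1, a transcription factor related to TCF-1, the 1 higher (1.69, SE 0.96, with 3.61, 1.17 and 0.37), and the list's median was -0.014. Klra3, a Ly49 receptor gene, was at 4.39 (SE 1.71) within clones, higher in 3 of 3 mice, and was not called. It stood at 9.77 against 0.587 TMM-scaled CPM, 10.1 against 2.17 and 149 against 0, so its value rests on few reads. Over all cells it was lower in the anti-CD4 tumour, at -1.72. Gzmk was at 0.37, or 0.17 without the anti-CD4 tumour, and Ccl5 was at 0.18. Ccr7 was at -0.07 in place of -1.69. Il7r was at -0.66, with 0.211 in the anti-CD4 tumour, and at -1.09 without the anti-CD4 and -0.27 without the tag 2 tumour. Whether the fit within clones and the fit over all cells differ was not tested.

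**Figure D3:**
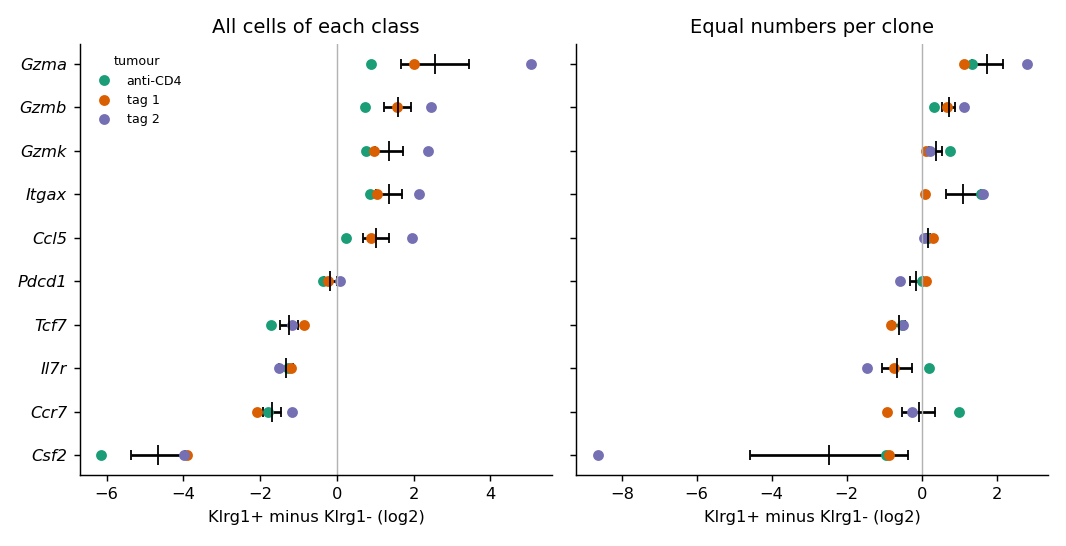
Log2 difference of Klrg1+ Havcr2- Mki67- minus Klrg1- cells for 10 genes, over all cells (left) and over equal numbers of cells per clone (right). Points are the 3 tumours, the vertical tick is edgeR's estimate and its bar the standard error. Gzma and Gzmb lie above 0 and Tcf7 below 0 in each tumour on both sides, while Ccr7 lies below 0 in each tumour on the left only.

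The largest of these clones shows the pattern in single cells. In the tag 1 clone TRBV12-1/TRBJ2-5, 263 cells were chosen and 882 were Klrg1-. Gzma was read in 43.3% of the former (exact 95% interval 37.3 to 49.6) and 26.8% of the latter (23.9 to 29.8), and after thinning in 40.3% and 25.3%. Itgax was read in 62.0% against 48.2%, Gzmk in 71.5% against 63.2% and Tcf7 in 51.3% against 61.8%. Il7r was read in 22.4% against 22.0%. In the anti-CD4 clone TRBV16/TRBJ2-5, with 59 and 556 cells, Gzma was read in 16.9% against 12.1%, Gzmk in 79.7% against 66.2%, Eomes in 44.1% against 25.9% and Tcf7 in 13.6% against 10.8%. In the tag 1 clone TRBV4/TRBJ2-3, with 95 and 684 cells, Gzma was read in 14.7% against 7.02%, and Tcf7 in 78.9% against 72.5%. In the tag 1 clone TRBV3/TRBJ1-4, with only 25 and 51 cells, Gzma was read in 32.0% against 23.5% and Tcf7 in 40.0% (exact 95% interval 21.1 to 61.3) against 80.4% (66.9 to 90.2). Tcf7 was thus less frequent in the chosen cells of 2 of these 4 clones and not in the other two.

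Havcr2+ cells of the same tumours, without Klrg1 or Mki67 reads, were set beside the chosen cells next. They numbered 3543, 468 and 952 for anti-CD4, tag 1 and tag 2, at medians of 22539, 22739 and 35751.5 reads. The test called 0 of 508 genes in edgeR (0%), with 62 at an unadjusted p under 0.05, and 64 in DESeq2 (12.6%), 28 higher and 36 lower in the chosen cells. In 3 of 3 mice 17.5% of genes were higher and 23.6% lower. Among genes of at least 50 CPM the 6 lowest were Lyz2, C1qa, H2-Aa, Spp1, Kit and Fcer1g. The 6 highest were Itgax, Lef1, Cd79b, Klra7, Lrrc32 and Gzma. A gene with few reads in 1 class could pass this limit or the filter only through the other class, so its direction is not a result. In the anti-CD4 tumour, Lrrc32 stood at 5462 CPM in 28 chosen cells with a Foxp3 read against 216 in the other 260. Cd79b stood there at 1362 against 119 CPM. B cell genes were higher in 3 of 4 tested (Cd79b, Ighm and Igkc) and lower in none, with a median of 1.46. DESeq2 called 3 of them higher. Macrophage and monocyte genes were lower in 4 of 8 and higher in 1. The part of free RNA or attached cells in these values was not tested.

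Of 7 short-lived effector genes tested against Havcr2+ cells, 5 were higher in the chosen cells in 3 of 3 mice. The other 2, Cx3cr1 and Tbx21, were lower in 3 of 3, and the list's median was 1.39. DESeq2 called 2 genes of the list, both higher. Gzma stood at 4128 CPM in the chosen cells against 1286 in Havcr2+ cells of the anti-CD4 tumour, 7574 against 2819 in the tag 1 tumour and 29028 against 725 in the tag 2 tumour, a difference of 2.76 (DESeq2 adjusted p = 0.0186). Itgax was higher by 1.87 (DESeq2 adjusted p = 0.00907) and Gzmk by 1.39. Without the tag 2 tumour Gzma was at 1.70 and Gzmk at 0.80. Gzmb differed by -0.23 and took no common direction, with 32273 against 32384 CPM in the anti-CD4 tumour, 12042 against 11987 in the tag 1 tumour and 8571 against 17705 in the tag 2 tumour.

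Memory and stem-like genes were higher in the chosen cells than in Havcr2+ cells, in 8 of 13 tested and lower in none, with a median of 0.76. Tcf7 stood at 373 against 110 CPM, 1563 against 1558 and 1984 against 825, which made the tag 1 tumour the one without a difference in this gene. Lef1 was higher by 1.90 and Il7r by 0.76. Checkpoint genes were lower in 5 of 14 tested and higher in none, with a median of -0.55. Pdcd1 was lower by 1.30 (DESeq2 adjusted p = 0.00279), with log2 values of -0.665, -1.82 and -1.41, and Lag3 had -1.89. In Tcf7 the chosen cells of the anti-CD4 and tag 2 tumours lay between the Klrg1- cells, at 1099 and 5011 CPM, and the Havcr2+ cells. Both fits share the chosen cells, so their differences are not independent.

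The chosen cells came from 91 clones in the anti-CD4 tumour, 134 in the tag 1 tumour and 67 in the tag 2 tumour. The leading clone held 20.5%, 42.8% and 7.84% of them, beside 17.3%, 23.2% and 0.654% of all cells of its tumour, and the leading 3 held 33.0%, 62.3% and 18.6%. The tag 1 clone TRBV12-1/TRBJ2-5 alone, the largest of that tumour with 1485 cells, gave 263 of 615. In the tag 2 tumour 35 of 102 chosen cells were the only cell of their clone.

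Within clones of at least 20 chosen and Klrg1- cells together, the chosen share of these cells ranged widely. There were 28, 13 and 26 such clones, with medians of 5.48%, 6.38% and 0% and highest values of 22.2%, 37.5% and 13.8%. In the anti-CD4 tumour TRBV2/TRBJ2-4 had 8 of 36 (22.2%, exact 95% interval 10.1 to 39.2) and TRBV20/TRBJ2-3 had 18 of 84 (21.4%, 13.2 to 31.7). The largest clone, TRBV16/TRBJ2-5, had 59 of 615 (9.59%, 7.38 to 12.2). In the tag 1 tumour TRBV16/TRBJ2-2 had 18 of 48 (37.5%, 24.0 to 52.6), TRBV3/TRBJ1-4 had 25 of 76 (32.9%, 22.5 to 44.6), TRBV12-1/TRBJ2-5 had 263 of 1145 (23.0%, 20.6 to 25.5) and TRBV4/TRBJ2-3 had 95 of 779 (12.2%, 9.98 to 14.7). The last 2 are the largest clones of that tumour and their intervals do not overlap.

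Large clones without any chosen cell were found in each tumour, numbering 5, 3 and 15. The tag 2 clone TRBV19/TRBJ1-1 had 0 of 101 (exact upper limit 3.59%). It was the second largest of its tumour with 323 cells, of which 146 were Havcr2+. The clones TRBV19/TRBJ1-1 of the anti-CD4 tumour and TRBV13-1/TRBJ2-3 of the tag 1 tumour had 0 of 25 and 0 of 26, which allow up to 13.7% and 13.2%. Each of these upper limits lies above the share in its tumour, so these clones are not shown to differ from their tumour. After thinning, the medians were 4.61%, 4.76% and 0%. Across the clones shown, the Spearman correlation of the chosen share with the Havcr2+ share of a clone's cells was -0.26, -0.50 and -0.44 (28, 13 and 26 clones). This is a description, because clones of 1 tumour share a library and the 2 shares are parts of 1 whole.

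**Figure D4:**
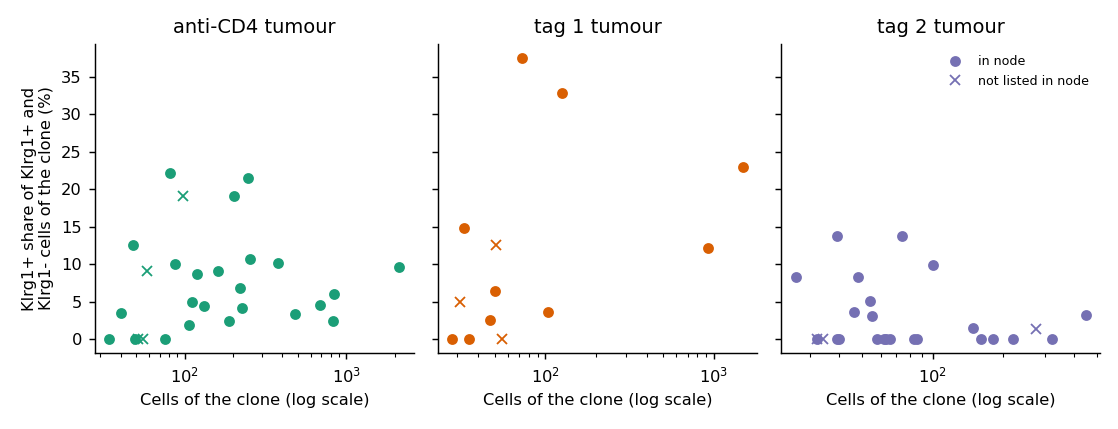
Klrg1+ share of the Klrg1+ and Klrg1- cells of a clone (percent) against the number of cells of the clone (log scale), for clones with at least 20 cells of the 2 classes in each tumour. Crosses are clones not listed in a node of the matching mice. Shares reach 22.2%, 37.5% and 13.8%, and clones at 0 occur in each tumour.

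The chosen cells belonged to clones of the draining node more often than Klrg1- cells did. The node was read in bulk for the beta chain of CD8+ CD44high, antigen-experienced cells, and the tags 1 and 2 were looked up in either of the 2 other nodes, because no label ties a tag to a node and their title and treatment labels contradict each other. In the anti-CD4 tumour 257 of 288 chosen cells (89.2%, exact 95% interval 85.1 to 92.6) were of a clone listed in the node, against 76.4% of Klrg1- cells (75.1 to 77.6). The shares were 77.9% (74.4 to 81.1) against 57.1% (55.7 to 58.6) in the tag 1 tumour and 43.1% (33.4 to 53.3) against 20.4% (19.6 to 21.3) in the tag 2 tumour. The mean difference over 3 mice was 18.8 percentage points ± 5.19 (SD, n = 3), higher in 3 of 3 (two-sided exact sign-flip permutation p = 0.25, the smallest that 3 mice allow). Looking each tumour up only in the 1 node that shared most clones with it gave a mean of 16.1 points. The shares were then 75.8% against 54.9% in the tag 1 tumour and 33.3% against 18.7% in the tag 2 tumour.

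Expanded clones supplied them too. Clones of at least 10 cells held 88.2% of the chosen against 68.6% of Klrg1- cells in the anti-CD4 tumour, 82.9% against 54.1% in the tag 1 tumour and 36.3% against 17.5% in the tag 2 tumour. The mean difference was 22.4 points ± 5.60 (SD, n = 3; exact permutation p = 0.25). The share in the node moved with clone size: counting only clones of at least 2 cells, it was 93.3% against 89.2%, 82.0% against 79.8% and 64.2% against 70.0%, a mean difference of 0.163 points. It also moved with read depth. Against Klrg1- cells matched in total reads the node shares were 89.2% against 79.9%, 77.9% against 62.6% and 43.1% against 50%, a mean of 5.93 points, with the direction turned in the tag 2 tumour. Clones of at least 10 cells likewise gave 76.7%, 61.0% and 49.0% in matched Klrg1- cells, a mean of 6.89 points. Havcr2+ cells lay in node clones in 89.7%, 70.9% and 77.0%.

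**Figure D5:**
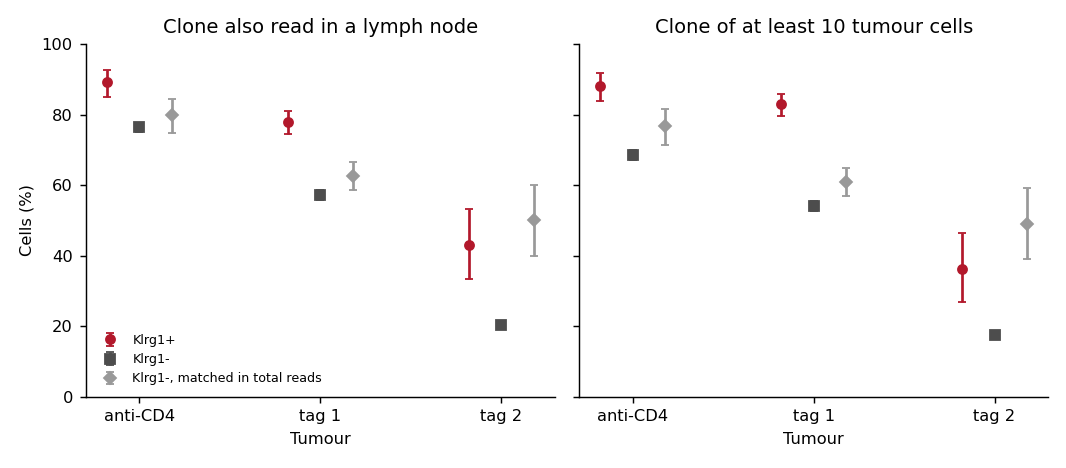
Percent of Klrg1+ Havcr2- Mki67- cells, of Klrg1- cells and of Klrg1- cells matched in total reads whose clone was listed in a draining node (left) or had at least 10 tumour cells (right), with exact 95% counting intervals. Klrg1+ cells lie above all Klrg1- cells in each tumour, and in the tag 2 tumour below the matched ones.

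Nodes of other mice served as a background. The difference there was 6.97 points on average, from 21.7 points in the tag 1 tumour and 0 or less in the other two. The leading tag 1 clone TRBV12-1/TRBJ2-5, with 419 reads in the node titled control, also had 304 reads in the anti-CD4 node. Its CDR3 has 1 base between V and J. None of the other clones printed above was listed in a node of another mouse. The leading anti-CD4 clone had 1216 reads in its node and was the 101st largest there, while TRBV20/TRBJ2-3, of the anti-CD4 tumour, was the 2nd largest with 8955 reads.

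Within the chosen cells of the anti-CD4 tumour a small set carried Foxp3, which encodes the defining factor of regulatory T cells and is usually expressed by CD4+ cells. Foxp3 was among the fixed markers of other cells, but the set was chosen after its values were seen, so no test is given. A Foxp3 read was found in 28 of 288 chosen cells (9.72%, exact 95% interval 6.56 to 13.7), of which 27 had at least 5. It was found in 45 of 4432 Klrg1- cells (1.02%), in 44 of 3543 Havcr2+ cells (1.24%) and in 0.888% of Pmel-1 cells. In the tag 1 and tag 2 tumours 0 of 615 and 0 of 102 chosen cells had one, which allows up to 0.598% and 3.55%. The 28 cells were found under both tags of the mouse, 13 and 15.

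Most of these cells had reads of the CD8 coreceptor, at a lower level. Cd8a was read in 85.7% of them and Cd8b1 in 92.9%, against 96.2% and 97.7% of the other 260 chosen cells, and Cd4 in none of either. The summed level of Cd8a was 5410 against 14649 CPM and that of Cd8b1 5777 against 11678 CPM. They also read Lrrc32, which encodes the TGF-beta docking receptor GARP of activated regulatory T cells, in 78.6% against 1.15%. Ikzf2 (Helios) was read in 39.3% against 1.92%, Il2ra (CD25) in 67.9% against 11.2%, Itgae (CD103) in 71.4% against 1.54% and Tnfrsf4 (OX40) in 100% against 22.7%. The effector markers were rarer than in the other chosen cells, at 17.9% against 78.1% for Gzmk, 10.7% against 20.4% for Gzma and 7.14% against 28.8% for Itgax, while Gzmb was read in 100% against 88.5%. Their median of Klrg1 was 180 reads against 62.5. Median total reads were 26346 against 19457.5. Igkc, an immunoglobulin gene of B cells, was also more often read in them, in 50% against 10.8%, as was Cd79b, of the B cell receptor, in 35.7% against 5.00%. Lyz2 was read in 10.7% against 1.54%, at 3118 against 69.0 CPM. The part of reads from other cells in these values was not tested.

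The Foxp3+ cells came from 14 clones, and 22 of 28 lay in clones of the node. The 2 clones with most of them are shown, because nearly all their tumour cells carried Foxp3, in or outside the chosen set.
anti-CD4 TRBV14/TRBJ2-4: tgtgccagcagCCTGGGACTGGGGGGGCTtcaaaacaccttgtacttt
anti-CD4 TRBV13-3/TRBJ2-7: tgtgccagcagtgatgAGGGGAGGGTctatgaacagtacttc
Of the first, 25 of 26 tumour cells had a Foxp3 read and 9 were chosen, and of the second 16 of 16 had one and 5 were chosen. They had 1603 and 796 reads in the node. Leaving cells with Foxp3 reads out of both classes gave log2 differences from Klrg1- cells of 2.61 for Gzma, 1.42 for Gzmk, 1.40 for Itgax and -1.17 for Tcf7, beside 2.55, 1.36, 1.35 and -1.25 with them. Il1rl1, which encodes the interleukin 33 receptor and was picked after its values were seen, went from 1.85 to 1.11. The node share of the chosen anti-CD4 cells was 90.4% without them and 89.2% with them.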

How the data were processed

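Panel expression and receptor chains of sorted tumour CD8+ T cells were read on BD Rhapsody, a microwell capture system, and the beta chains of node cells in bulk. Of 9 samples, 5 had files used here. The submitters' processing notes name the build GRCm38, cutadapt 3.4 and 3.2, R 3.6.3 and Bowtie2 2.4.2; the receptor caller is not given in the sources used here. Both matrices, as deposited, hold whole-number counts per gene and cell; the lowest cell has 4360, so they were read as sequencing reads and not as molecules, which the design had assumed. Chain totals per cell were deposited as estimated counts, and the authors' node tables give reads and the fraction of listed reads per clone, from 10 reads up. Coordinates are those of RefSeq on GRCm38.p6.

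Genes in both matrices were used (2124 of 2525 and 4636). Cells without a beta chain, untagged cells, cells called doublets in the deposited tables and the Pmel-1 clone were left out, and no further doublet caller was run. The cartridges share 382 cell numbers, which were kept apart by cartridge. Tags 5 and 6 were counted as 1 mouse.

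Reads were summed per mouse and class (6 sums; 1005 chosen cells, with sums of 6022635, 13828420 and 3212106 reads for anti-CD4, tag 1 and tag 2) and tested by quasi-likelihood in edgeR 4.0.16 (R 4.3.3), after TMM scaling and filterByExpr at a minimum count of 10, with Benjamini-Hochberg adjusted p under 0.05 as a call. The mouse was a block because both classes come from the same tumours. DESeq2 1.42.0 was an alternative. The test was also run on simulated counts with planted changes. Their spread was set and not estimated from these data, so that run does not measure the test's power here. Shares carry exact Clopper-Pearson 95% intervals (Python 3.11.15, scipy 1.17.1), and node and size shares an exact sign-flip permutation over mice. Of the 219 genes in 18 lists, those not in the panel or under the filter were not tested.

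Named genes were the fixed markers, the 3 most abundant tested genes of each list, and, since fewer than 10 genes passed, the 10 of largest absolute log2 difference of 1 sign in 3 mice and at least 50 CPM. For Havcr2+ cells the 6 highest and 6 lowest were taken. Named clones were the 3 with most chosen cells and those of highest and lowest share in each tumour. Prdm1, Zeb2, Entpd1, Il1rl1 and the genes described in Foxp3+ cells were named after their values were seen. Some genes of the lists are counted but not reported by name. The members, lists and tests were chosen with earlier results of these data known.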

Additional observations from a re-analysis of the deposited data

Results flagged for a closer look

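Differences between chosen and Klrg1- cells that point in opposite directions in different tumours, by at least 1.0 on the log2 scale each way, were found for 3 genes with a result of their own. The difference between tumours was not tested, since each has 1 mouse. Xcl1, a chemokine gene of activated CD8+ and NK cells, was at 1.46 in the tag 2 tumour and at -2.31 in the tag 1 tumour. Pclaf, a gene of DNA replication, was at 1.61 in the anti-CD4 tumour and at -1.50 in the tag 1 tumour. Klra3, a Ly49 receptor gene read in 0.694% to 2.94% of the chosen cells of a tumour, was at 1.14 in the tag 2 tumour and at -1.72 in the anti-CD4 tumour.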

How the results depend on the processing

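The sums rest on 3 mice with 1 treatment each, and 102 chosen cells in the tag 2 tumour. At this size edgeR called no gene in any of the 3 comparisons, so a gene without a call is not shown to be equal. Depth is a limit too, because Klrg1 reads are found more readily in cells read deeper. Free RNA, doublets that the tables did not mark and reads split between similar genes of the Ly49 family were not separated from the cells' own reads.

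Counts of called genes moved with the test and filter. For chosen against Klrg1- cells, DESeq2 called 75 genes, edgeR without a filter on low counts 40, with Klrg1 of at least 1 read 17, and 0 to 19 when 1 mouse was left out, the 19 without the tag 1 tumour. Within clones DESeq2 and edgeR without the filter each called 7, and against Havcr2+ cells they called 64 and 38, with 0 called when any 1 mouse was left out. The mouse pairs the classes by design; with no replicate block edgeR called 0 genes in each comparison. Of the 75 DESeq2 calls, 42 of 44 tested against Klrg1- cells matched in total reads had the same direction.

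Shares of chosen cells for anti-CD4, tag 1 and tag 2 were 2.80%, 11.3% and 1.29% with Klrg1 of at least 1 read and 1.81%, 7.44% and 0.566% with at least 20. After thinning they were 7.49% and 0.601% in the tag 1 and tag 2 tumours, and 3.04% and 10.6% in the anti-CD4 and tag 1 tumours with at least 1 read of Klrg1, a limit chosen after seeing the data. The node difference ranged from 16.8 to 21.7 points and the clone size difference from 19.2 to 24.2 points when 1 mouse was left out. Without the leading clone of each tumour they were 15.6 and 20.8, and without cells with Foxp3 reads 19.2 and 22.9; both settings, the one without macrophage reads and the one with genes of at least 50 CPM were chosen after seeing the data.

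Of 56 gene differences checked, 42 kept 1 direction in every setting and 14 turned in at least 1, most of them near 0. Against Klrg1- cells, 1 cell per clone and class turned Cx3cr1 (-0.999), Pdcd1 (0.86), Ctla4 (0.15), Lag3 (0.069) and Cd8b1 (-0.070). No replicate block turned Ctla4 (0.054), Cd8b1 (-0.019), Xcl1 (0.50) and Klra3 (0.33). Without the filter Cx3cr1 was at -0.075 and Cd8b1 at -0.11, and with Klrg1 of at least 1 read Cx3cr1 was at -0.20 and Cd3e at 0.016. With at least 20 reads Cd8b1 was at -0.080, and with thinned cells at -0.031. Matching in total reads turned Pclaf (-0.47) and Klra3 (0.14) and moved Cx3cr1 from 0.05 to 1.03. Cd3e was at 0.052 in DESeq2 and under median-of-ratios scaling, and at 0.042, 0.082, 0.023 and 0.0043 without the leading clones, macrophage reads, Foxp3 reads and genes under 50 CPM. Leaving out 1 mouse gave ranges of -0.14 to 0.16 for Cx3cr1, -0.29 to 0.041 for Cd8a, -0.16 to 0.15 for Cd8b1, -0.16 to 0.14 for Cd3e, -0.093 to 1.49 for Pclaf and -1.12 to 0.34 for Klra3. Within clones it gave -0.59 to 0.32 for Ccr7, -0.32 to 0.060 for Pdcd1 and -1.23 to 0.039 for Cx3cr1, and against Havcr2+ cells -0.39 to 0.14 for Gzmb. The cause was not tested.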
